A study of Mus musculus with 17 samples.

Results

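Zinc and iron handling genes were followed across mouse kidney cortices in which the transcription factor ATF4 had or had not been deleted from proximal tubules. The 10 genes were taken from the table by their names, and all of them were found among its 48795 genes. They were Mt1, Mt2, Slc30a1, Slc39a5, Slc39a8, Slc39a14, Slc40a1, Slc11a2, Tfrc and Fth1. All 10 passed the abundance filter in every comparison, which was a mean of at least 1 FPKM (fragments per kilobase of exon, scaled for depth) in a compared group, and their counts lay between 723 and 385850 per library.

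The series held mRNA libraries from 17 kidney cortices: 5 WT, 5 GCERAd, 3 TRACK and 4 GCERAdT. WT mice are labelled only as wild type. GCERAd (GCERAΔ) mice carried the Ggt/CreER transgene and a floxed Atf4 allele on both chromosomes, and had been injected with tamoxifen on 2 consecutive days at 6 weeks of age. The Cre of this line is driven by a part of the Ggt1 promoter, so recombination was directed to proximal tubules and Atf4 in other cells of the cortex was left intact. TRACK is a transgenic mouse model of kidney cancer, of which the labels give only the name, and GCERAdT combines TRACK with the Atf4 deletion. Tissue was taken 1 month after the first injection and after a fast of 16 h, as the methods state for the mice of the study. The sources used here do not say whether WT or TRACK mice also received tamoxifen, and they give no age for TRACK and GCERAdT mice.

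Metallothioneins are small cysteine-rich proteins that hold zinc, copper and cadmium, and their genes are switched on by the zinc-sensing factor MTF-1 through metal response elements and, in many tissues, by glucocorticoids. Transporters of the SLC30 family move zinc out of the cytosol, whereas transporters of the SLC39 family move zinc, and in some cases iron, manganese and cadmium, into it. Iron enters cells bound to transferrin through the transferrin receptor or as a free ion through SLC11A2, is stored in ferritin and leaves through ferroportin, and when it is scarce the iron regulatory proteins bind iron responsive elements that hold back translation of ferritin and ferroportin mRNA and stabilise transferrin receptor mRNA.

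The promoter windows of Mt1, Mt2 and Slc30a1 are shown because these genes are textbook targets of MTF-1 and moved in opposite directions in GCERAd cortices. Sequences are from RefSeq (GRCm38.p6), 5′ to 3′ on the strand of the gene, from 250 bases before the annotated start to 50 bases after it. These starts can differ from the gene positions given below. The Mt2 window ends at 94172667, while the position given for Mt2 starts at 94172664. Capitals mark matches to the core of the metal response element, TGCACNC or TGCGCNC, on either strand.
Mt1 promoter window, chr8:94178839-94179138, plus strand: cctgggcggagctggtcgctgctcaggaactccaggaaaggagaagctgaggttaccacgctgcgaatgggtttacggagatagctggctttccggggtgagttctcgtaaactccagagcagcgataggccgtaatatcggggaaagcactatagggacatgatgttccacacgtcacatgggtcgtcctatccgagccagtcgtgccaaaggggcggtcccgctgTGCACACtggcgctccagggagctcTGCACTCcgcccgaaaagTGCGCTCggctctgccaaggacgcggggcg
Mt2 promoter window, chr8:94172368-94172667, plus strand: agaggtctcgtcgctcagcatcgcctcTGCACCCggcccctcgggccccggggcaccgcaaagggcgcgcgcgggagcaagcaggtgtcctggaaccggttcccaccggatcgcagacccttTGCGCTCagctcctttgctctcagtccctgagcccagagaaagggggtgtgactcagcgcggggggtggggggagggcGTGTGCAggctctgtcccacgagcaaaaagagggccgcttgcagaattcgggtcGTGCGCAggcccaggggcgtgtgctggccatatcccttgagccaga
Slc30a1 promoter window, chr1:191906531-191906830, plus strand: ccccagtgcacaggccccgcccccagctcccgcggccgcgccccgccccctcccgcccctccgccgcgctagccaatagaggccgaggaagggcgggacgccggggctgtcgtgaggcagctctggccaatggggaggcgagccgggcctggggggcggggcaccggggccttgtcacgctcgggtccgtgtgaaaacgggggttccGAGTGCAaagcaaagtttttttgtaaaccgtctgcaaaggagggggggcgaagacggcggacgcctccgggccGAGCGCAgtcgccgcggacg

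The window of Mt1 held 3 matches, that of Mt2 held 4 and that of Slc30a1 held 2. Over all 32851 promoter windows of the same length, 25.7% held at least 1 match and 1.97% held at least 3. A promoter window was found for 7 of the 10 genes, with 11 windows in all. Among the other genes, 1 window of Slc39a5 and 1 of Slc39a8 held a single match, 1 window of Tfrc held 2 matches that overlapped each other, and those of Fth1 held 0. The motif TGATGNAA, a core of the composite site that C/EBP and ATF factors bind, was in 0 of the 11 windows and in 3.97% of all windows. A match in these letters is a description and not a bound site.

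**Figure D1:**
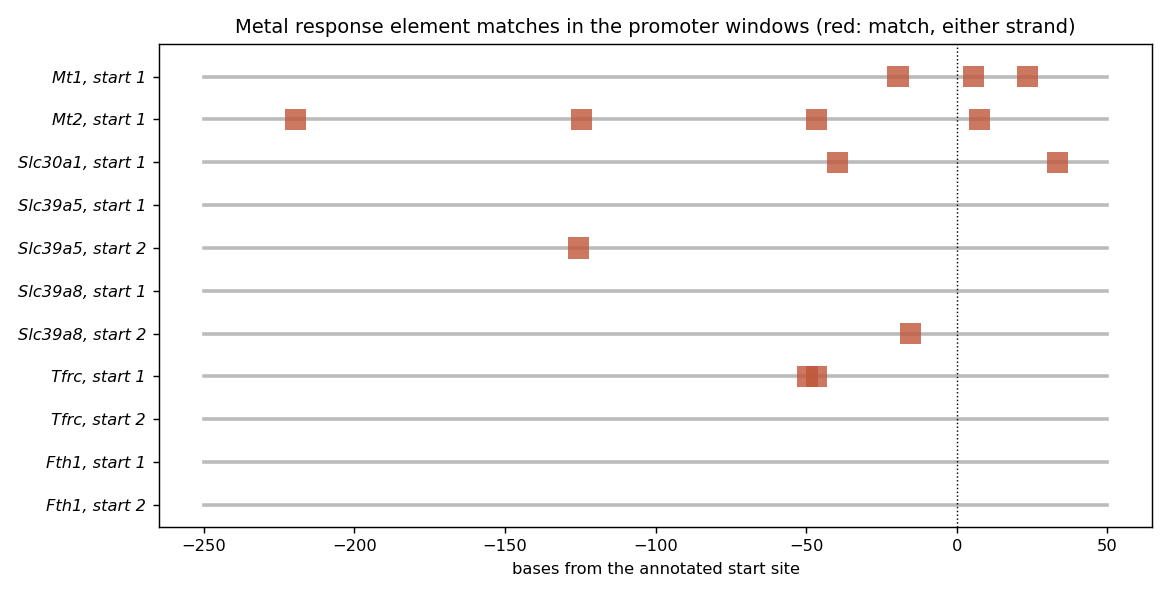
Positions of metal response element matches in the 11 promoter windows of 7 genes, in bases from the annotated start (dotted line, counted as 0). Each grey line is a window from 250 bases before to 50 bases after a start, and red blocks are matches on either strand. The 4 matches of Mt2 are spread over the window, whereas the 3 of Mt1 lie close to its annotated start. An annotated start need not be the one used in these cortices, which was not measured.

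Iron responsive elements are shown for the 3 of the 10 genes in whose transcripts the search found them, all of which are known to be under their control. The search took a C, a stem of 5 bases, the loop CAGTGN and 5 bases that pair with the stem, with G-T pairs allowed, in the transcripts of GENCODE M21 (GRCm38). Hairpins of another shape were not searched for, so a gene without a match, such as Slc11a2, may still hold an element. Capitals mark the loop, and 29 bases are given for each.
Fth1 5′ UTR, chr19:9982732-9982760, plus strand: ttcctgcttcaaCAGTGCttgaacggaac
Slc40a1 5′ UTR, chr1:45925465-45925493, minus strand: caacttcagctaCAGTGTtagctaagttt
Tfrc 3′ UTR, chr16:32631219-32631247, plus strand: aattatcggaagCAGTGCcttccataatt
Tfrc 3′ UTR, chr16:32631598-32631626, plus strand: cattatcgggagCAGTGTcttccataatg
Tfrc 3′ UTR, chr16:32631663-32631691, plus strand: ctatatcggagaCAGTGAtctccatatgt
Tfrc 3′ UTR, chr16:32631710-32631738, plus strand: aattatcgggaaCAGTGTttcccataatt

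Tfrc held 4 such elements in its 3′ UTR, while Fth1 and Slc40a1 each held 1 in the 5′ UTR. Among 22527 coding genes, 0.138% had a match in a 5′ UTR and 0.639% in a 3′ UTR. No promoter or UTR measurement was made in these data, so the elements give only the setting in which the mRNA levels of Tfrc, Fth1 and Slc40a1 can be read.

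Total counts on genes were between 53688512 and 71364561 per library. Processed pseudogenes took up 0.032% to 0.038% in 8 libraries (kind A) and 0.0574% to 0.0784% of counts in 9 libraries (kind B), a split that the labels do not name. A sequencing quality list in the study's supplement shows sets of libraries that were run separately, with a pair of library names that return in a later set under an added letter, but it does not tie those names to the samples. All 3 TRACK libraries were of kind B, and 4 of 5 WT libraries were of kind A. Xist, the transcript of the inactive X chromosome, was at 147 CPM (counts scaled for library depth by the TMM method) or more in all 5 WT libraries and at 6.06 CPM or less in the other 12, and 3 genes of the Y chromosome, Uty, Ddx3y and Eif2s3y, were counted in those 12 and not in WT. Comparisons with WT were therefore also comparisons of females with males, and the effect of genotype and that of sex cannot be told apart in them (Xist in GCERAd against WT, p = 0.00794 in an exact two-sided permutation test, the lowest value possible with 5 libraries against 5). GCERAdT over TRACK and GCERAdT over GCERAd compared males only.

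Atf4 was between 74.8 and 101 CPM in WT and between 55.8 and 75.2 CPM in GCERAd, which was a log2 fold change of -0.38 (standard error, SE, of 0.11, adjusted p = 0.0218, edgeR). In TRACK it was between 77.6 and 93.4 CPM and in the libraries labelled GCERAdT between 80.5 and 104 CPM, where it was not lower (log2 fold change 0.17, SE 0.11, adjusted p = 0.367, edgeR). Directions drawn from GCERAdT below are thus those of the libraries labelled so. GCERAd 4 and 5 stood apart from GCERAd 1, 2 and 3: the summed level of 5 glucocorticoid-responsive genes was 400.3 and 524 CPM in them, against 176 to 204 CPM in the other 3. WT 1 and 2 may be repeat libraries of the same mouse, as the deviation of WT 2 followed that of WT 1 (r of 0.405 over 500 genes). Its r with WT 3, 4 and 5 was -0.147 to -0.064. GCERAd 2 and 3 (0.445) and GCERAdT 2 and 3 (0.338) were taken as possible repeats as well. These groups held only 2 kind A libraries each, so any kind B library had to follow 1 of them. GCERAd 4 and 5 (0.146 and 0.173) and GCERAdT 4 (0.213) also followed library 2. Whether these pairs are repeats cannot be told from r. The labels number every library as a mouse of its own but state 3 to 4 mice per cohort, so p-values measure the spread between these libraries, part of which may be technical. Fits without GCERAd 4 and 5 were chosen after seeing the data and keep GCERAd 1, 2 and 3, of which 2 and 3 may be repeats. For Mt1, Mt2, Slc40a1 and Tfrc, GCERAd 4 and 5 were the nearest of their group to WT, so leaving them out had to enlarge these changes. All 9 proximal tubule markers were detected in every group, with a summed level of 7598 to 9206 CPM in WT, 8207 to 11882 in GCERAd, 4681 to 5399 in TRACK and 5339 to 6221 in GCERAdT. The summed level of 5 collecting duct markers was 828 to 1021 CPM in WT, 347 to 599 in GCERAd, 464 to 516 in TRACK and 284 to 502 in GCERAdT, and that of 5 markers of the thick ascending limb and distal convoluted tubule was 5819 to 8250 CPM in WT, 3830 to 5001 in GCERAd, 3757 to 6404 in TRACK and 4604 to 5030 in GCERAdT. GCERAd 4 and 5 were lowest of their group in proximal tubule (8438 and 8207 CPM, against 10542 to 11882) and collecting duct markers (363 and 347 CPM, against 540.3 to 599). They were also lowest in leukocyte (67.1 and 59.3 CPM, against 95.8 to 106) and adipocyte markers (18.6 and 20.3 CPM, against 44.7 to 129). In markers of the thick ascending limb and distal convoluted tubule they were highest (5001 and 4588 CPM, against 3830 to 4438), as in podocyte markers (365 and 390 CPM, against 288 to 320). The part of these markers in the results below was not tested. In bulk cortex, fewer cells of a type and less RNA per cell cannot be told apart.

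Per length, Fth1 was by far the most abundant of the 10 mRNAs, with a mean of 1171 FPKM in WT and 1869 FPKM in TRACK, and it took up 0.406% of all counts in WT. Mt1 and Mt2 followed at 87.0 and 61.0 FPKM in WT. The transporters and Tfrc lay between 3.01 FPKM for Slc39a14 and 29.5 FPKM for Slc39a5 in WT. Slc39a5 was the most abundant transporter of the list in WT, while in GCERAd its 11.5 FPKM was below the 17.5 FPKM of Slc30a1 and the 15.5 FPKM of Slc11a2.

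**Figure D2:**
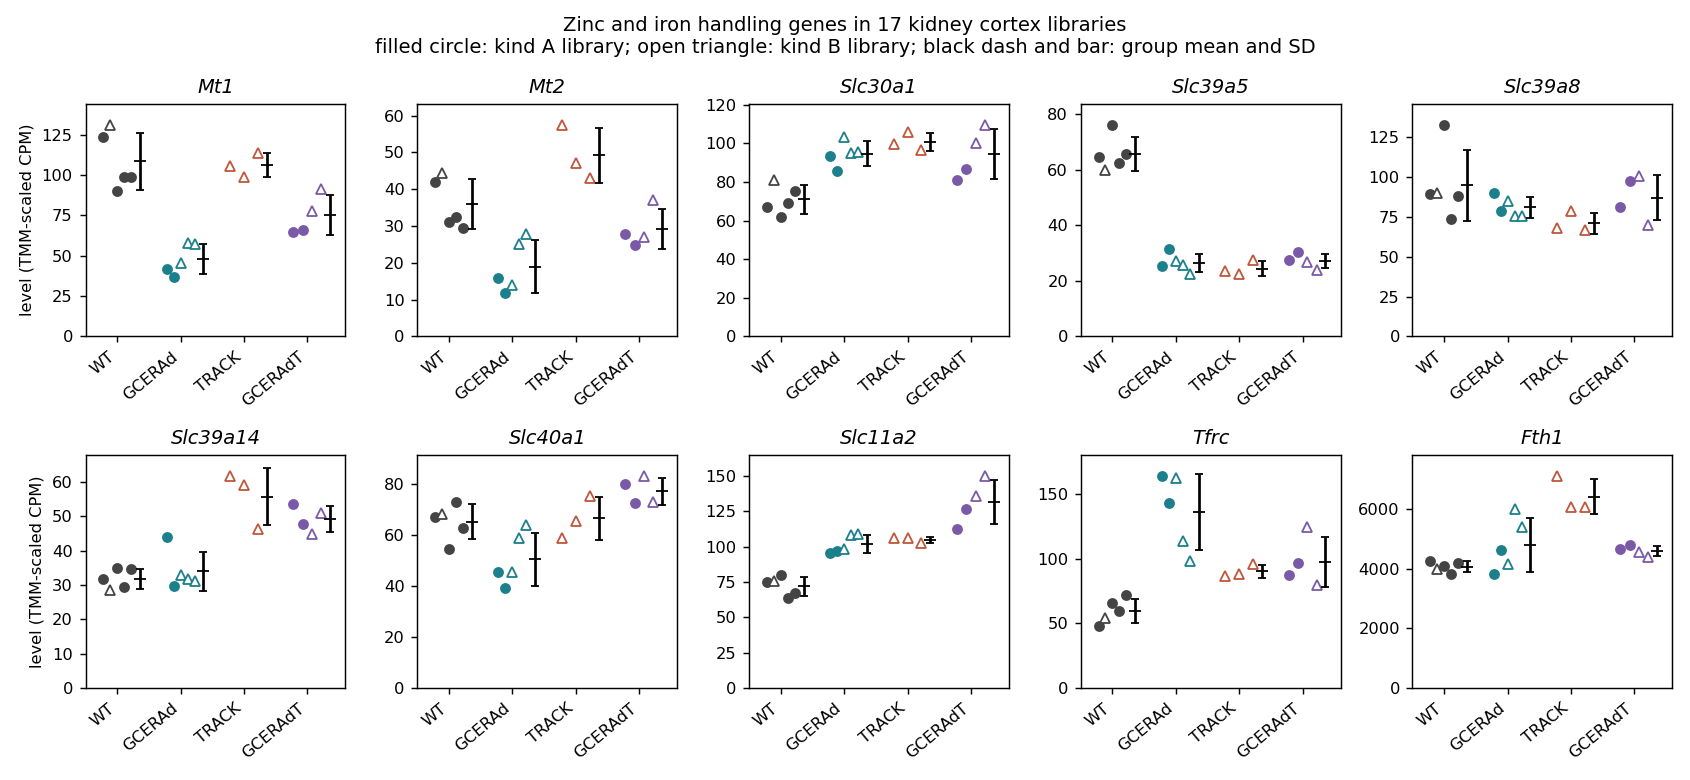
Level of each of the 10 genes in all 17 libraries, in TMM-scaled CPM on axes that start at 0, with filled circles for kind A and open triangles for kind B libraries. The black dash and bar give the mean and SD of each group of 3 to 5 libraries. Slc39a5 is at 59.8 CPM or more in every WT library and at 31.3 CPM or less in all others, Mt1 is lowest in GCERAd, and Slc11a2 is highest in GCERAdT.

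In GCERAd over WT cortices, the genes that hold zinc fell, the main zinc exporter rose and the receptor for transferrin rose most. Of the 10 genes, 3 rose (Slc30a1, Slc11a2 and Tfrc) and 3 fell (Mt1, Mt2 and Slc39a5) with adjusted p-values of 0.05 or less among the 11581 genes tested, where 27.6% of all genes passed, 14.1% upwards and 13.5% downwards. The same 6 genes did not overlap between the groups, against 20.2% of all genes. Among the other 4, the log2 fold changes were -0.21 for Slc39a8, 0.11 for Slc39a14, -0.35 for Slc40a1 and 0.25 for Fth1. The value of Slc39a8 was -0.06 without WT 3, and that of Slc39a14 was -0.01 without GCERAd 1. In kind B libraries alone, with 1 WT library, Slc39a5 was the only one of the 10 that was called.

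Mt1 encodes metallothionein 1 (ENSMUSG00000031765, chromosome 8 of GRCm38, 94179082 to 94180327). The levels in WT 1 to 5 were 123, 131, 89.9, 99.1 and 99.0 CPM. Those in GCERAd 1 to 5 were 42.1, 36.6, 45.7, 58.1 and 57.0 CPM. Every GCERAd library lay below every WT library, and GCERAd 4 and 5 were the highest of their group. The mean was 109 ± 17.7 CPM in WT and 47.9 ± 9.41 CPM in GCERAd (SD, n = 5 libraries each, of which a pair in each group may be repeats), which gave a log2 fold change of -1.17, a 2.25-fold decrease (SE 0.15, adjusted p = 0.000183, edgeR). Without GCERAd 4 and 5 the log2 fold change was -1.37 (adjusted p = 4.54e-05, edgeR), and it was -1.38 in kind A libraries alone (adjusted p = 0.000146) and -1.28 in kind B libraries alone, with 1 WT library (adjusted p = 0.0535).

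In TRACK 1 to 3 the level of Mt1 was 106, 99.0 and 114 CPM, within the range of WT (log2 fold change -0.03, SE 0.13, adjusted p = 0.866, edgeR, and -0.30 with kind as a covariate, adjusted p = 0.196). The libraries GCERAdT 1 to 4 held 64.9, 66.2, 78.0 and 91.5 CPM. These were all below TRACK and all above GCERAd. Mt1 was thus lower in GCERAdT than in TRACK by a log2 fold change of -0.49 (SE 0.13, adjusted p = 0.0483, edgeR) and higher than in GCERAd by 0.64 (SE 0.16, adjusted p = 0.0173, edgeR). The latter call was lost with GCERAdT 2 and 3 summed as well (0.61, adjusted p = 0.0586) and in kind B libraries alone (0.65, adjusted p = 0.0684). The former was lost with all 17 libraries in 1 fit (adjusted p = 0.0793), with repeat libraries summed (adjusted p = 0.0864), when any 1 library other than GCERAdT 4 was left out (highest adjusted p = 0.129), with kind as a covariate (log2 fold change -0.32, adjusted p = 0.14) and in kind B libraries alone (-0.32, adjusted p = 0.215). In the order WT, TRACK, GCERAdT, GCERAd, neighbouring groups overlapped between WT and TRACK and not at the later steps, while GCERAdT 4 was also just above WT 3.

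Mt2 (ENSMUSG00000031762) lies beside Mt1 on chromosome 8, from 94172664 to 94173568, and encodes metallothionein 2. Its levels in WT 1 to 5 were 41.9, 44.5, 31.0, 32.5 and 29.5 CPM. In GCERAd 1 to 5 they were 16.0, 11.9, 14.0, 25.2 and 27.9 CPM. The groups did not overlap, but the gap between GCERAd 5 and WT 5 was small. This was a log2 fold change of -0.91 (SE 0.23, adjusted p = 0.0124, edgeR), -1.35 without GCERAd 4 and 5 (adjusted p = 0.000141), and -0.72 with the possible repeat libraries summed, where it no longer passed (adjusted p = 0.0566). The summed glucocorticoid-responsive genes were also highest in GCERAd 4 and 5 within the group, and their part in the result was not tested.

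TRACK 1 to 3 had 57.5, 47.2 and 43.0 CPM of Mt2. In GCERAdT 1 to 4 the levels were 27.9, 24.8, 27.0 and 37.0 CPM. No GCERAdT library reached the level of a TRACK library, and the log2 fold change of -0.74 passed the test (SE 0.14, adjusted p = 0.0158, edgeR). The call was lost with all 17 libraries in 1 fit (adjusted p = 0.0754), with kind as a covariate (-0.61, adjusted p = 0.0764) and in kind B libraries alone (-0.61, adjusted p = 0.133), and without TRACK 1, GCERAdT 2 or GCERAdT 3 (highest adjusted p = 0.0633). All 5 glucocorticoid-responsive genes fell in the same comparison, with a summed level of 625 to 707 CPM in TRACK and 199.9 to 286 CPM in GCERAdT, and their part in the change of Mt1 and Mt2 was not tested. In GCERAdT over GCERAd, Mt2 had a log2 fold change of 0.61 that did not pass (SE 0.25, adjusted p = 0.115, edgeR), while it was 0.83 with the mouse number as a block (adjusted p = 0.00184). The mouse number is only the number in the label of a library. Libraries of the same number in GCERAdT and GCERAd were also of the same kind, so number and kind cannot be told apart. Mt2 was higher in TRACK than in WT by 0.46 (SE 0.15, adjusted p = 0.0296, edgeR), a call that was lost with kind as a covariate (0.15, adjusted p = 0.643), with the mouse number as a block (0.34, adjusted p = 0.0568), with all 17 libraries in 1 fit (adjusted p = 0.127) and without any 1 of 5 libraries, WT 3, WT 4, WT 5, TRACK 1 or TRACK 2 (highest adjusted p = 0.138).

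Together, Mt1 and Mt2 summed to 144 ± 24.4 CPM in WT and 66.9 ± 16.3 CPM in GCERAd (SD, n = 5 each), to 155 ± 8.52 CPM in TRACK (SD, n = 3) and to 104 ± 17.2 CPM in GCERAdT (SD, n = 4). The ratio of Mt1 to Mt2 counts was between 2.90 and 3.35 in WT and between 2.05 and 3.27 in GCERAd. In GCERAd the lowest ratios, like the highest levels of both genes, were those of libraries 4 and 5. The antisense gene Gm45774, which overlaps an exon of Mt2, had 63 counts over all libraries, against 32181 of Mt2. Since the strand setting of the counting is not stated, reads from such antisense partners cannot be told apart, here and for Slc30a1 and Slc11a2.

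Slc30a1 encodes ZnT1, which exports zinc across the plasma membrane (ENSMUSG00000037434, chromosome 1, 191906767 to 191913247). WT 1 to 5 had 67.3, 81.1, 61.8, 69.2 and 75.5 CPM. GCERAd 1 to 5 had 93.6, 85.6, 103, 95.2 and 95.6 CPM. All GCERAd libraries exceeded all WT libraries, and both metallothioneins were lower in the same cortices. In TRACK the exporter was also higher than in WT, while Mt1 was within the WT range and Mt2 was not lower. The log2 fold change of Slc30a1 in GCERAd over WT was 0.43 (SE 0.085, adjusted p = 0.00316, edgeR) and stayed at 0.42 without GCERAd 4 and 5 (adjusted p = 0.00828).

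In TRACK 1 to 3 the level of Slc30a1 was 99.5, 106 and 96.6 CPM, which was higher than in WT by a log2 fold change of 0.51 (SE 0.092, adjusted p = 0.00163, edgeR). GCERAdT 1 to 4 had 81.1, 86.8, 100.2 and 109.6 CPM. The 2 kind A libraries of GCERAdT were its lowest and the 2 of kind B its highest. GCERAdT did not differ from TRACK beyond the spread between libraries (log2 fold change -0.08, SE 0.11, adjusted p = 0.675, edgeR), and the sign turned to 0.07 with library kind as a covariate. The increase in TRACK over WT was not called with that covariate (0.31, adjusted p = 0.0873). Slc30a1 shares exon bases with the antisense gene 1700034H15Rik, which had 487 counts against 90420 of Slc30a1 over all libraries.

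**Figure D3:**
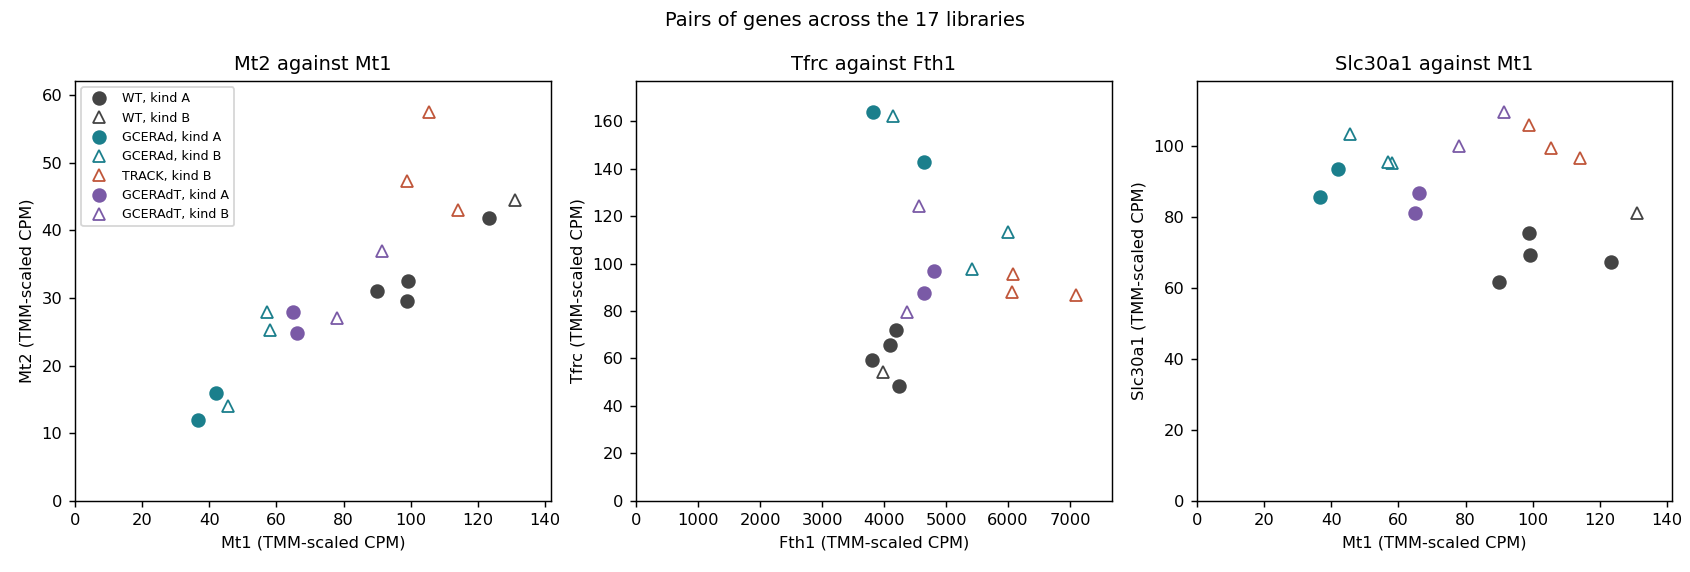
Levels of gene pairs in the 17 libraries, in TMM-scaled CPM on axes that start at 0: Mt2 against Mt1, Tfrc against Fth1, and Slc30a1 against Mt1, with colours for groups, filled circles for kind A and open triangles for kind B. Mt1 and Mt2 rise together over the libraries. GCERAd libraries combine low Mt1 with more Slc30a1 than WT, and GCERAd 1 to 3 combine the highest Tfrc with Fth1 near the WT level.

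Slc39a5 encodes ZIP5, a zinc importer of the basolateral membrane (ENSMUSG00000039878, chromosome 10, minus strand, 128395931 to 128401229). The WT libraries 1 to 5 had 64.5, 59.8, 76.2, 62.6 and 65.6 CPM. GCERAd 1 to 5 had 25.4, 31.3, 27.0, 25.7 and 22.5 CPM. WT stood alone for this gene, since the 3 TRACK libraries, at 23.4, 22.4 and 27.5 CPM, and the 4 GCERAdT libraries, at 27.4, 30.3, 27.0 and 23.9 CPM, lay in the range of GCERAd. In TRACK over WT it was lower by a log2 fold change of -1.43 (SE 0.10, adjusted p = 5.42e-06, edgeR), and in GCERAd over WT by -1.30 (SE 0.095, adjusted p = 2.94e-06, edgeR), both against the same WT libraries. Between groups of one sex the gene did not differ beyond the spread: the log2 fold change was 0.16 in GCERAdT over TRACK (SE 0.11, adjusted p = 0.388, edgeR) and 0.03 in GCERAdT over GCERAd (SE 0.11, adjusted p = 0.887, edgeR). Genotype and sex cannot be told apart for Slc39a5, because the 5 WT libraries were the only ones with high Xist.

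Slc39a8 encodes ZIP8, which imports zinc, manganese, iron and cadmium. It was between 73.9 and 133 CPM in WT (median 89.3), 75.7 and 90.4 in GCERAd (median 78.5), 66.6 and 78.8 in TRACK, and 69.9 and 100.5 in GCERAdT. The ranges of WT, GCERAd and GCERAdT overlapped, and WT 3 held the highest value. It passed in none of the comparisons, with log2 fold changes from -0.41 in TRACK over WT (SE 0.17, adjusted p = 0.0628, edgeR) to 0.30 in GCERAdT over TRACK (SE 0.14, adjusted p = 0.197, edgeR), each of which had an unadjusted p below 0.05 (0.0302 and 0.0489). DESeq2 called the former (adjusted p = 0.0274), and it was -0.26 without WT 3 (adjusted p = 0.0573, edgeR).

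Slc39a14 encodes ZIP14, an importer of zinc, manganese and non-transferrin iron. Its range was 28.5 to 34.9 CPM in WT and 29.8 to 44.0 in GCERAd, where GCERAd 1 held the highest value and the next was 33.0 CPM. TRACK 1 to 3 had 61.7, 59.2 and 46.2 CPM, and GCERAdT 1 to 4 had 53.5, 47.7, 44.7 and 51.0 CPM. Both groups with the TRACK transgene were thus above both groups without it. The log2 fold change was 0.81 in TRACK over WT (SE 0.11, adjusted p = 0.000247, edgeR) and 0.52 in GCERAdT over GCERAd (SE 0.11, adjusted p = 0.0099, edgeR), of which the second compared males only. With library kind as a covariate they were 0.97 (adjusted p = 0.00549) and 0.51 (adjusted p = 0.00733). In kind A libraries alone the second was 0.46 (adjusted p = 0.0551). The summed level of 4 endothelial markers was also higher with the transgene, at 345 to 394 CPM in TRACK and 302 to 327 in GCERAdT against 197 to 254 over WT and GCERAd, and that of 4 tubule injury genes was 35.3 to 71.8 CPM against 8.25 to 19.6. Their part in the result was not tested.

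Slc40a1 encodes ferroportin, the exporter of iron. WT 1 to 5 had 67.0, 68.2, 54.6, 72.7 and 62.7 CPM. GCERAd 1 to 5 had 45.3, 38.9, 45.4, 58.7 and 63.9 CPM. GCERAd 1, 2 and 3 were below every WT library, whereas GCERAd 4 and 5 lay within the WT range. Over all libraries the log2 fold change of -0.35 did not pass (SE 0.13, adjusted p = 0.071, edgeR), but it was -0.57 without GCERAd 4 and 5 (adjusted p = 0.00179, edgeR), -0.48 with kind as a covariate (adjusted p = 0.0143) and passed with DESeq2 (-0.35, adjusted p = 0.0443). With the possible repeat libraries summed it was -0.28 (adjusted p = 0.197, edgeR).

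TRACK 1 to 3 had 58.6, 65.4 and 75.2 CPM of Slc40a1. The GCERAdT libraries 1 to 4 had 80.0, 72.2, 82.9 and 72.9 CPM. All 4 lay above the GCERAd libraries and overlapped with TRACK. The log2 fold change was 0.60 in GCERAdT over GCERAd (SE 0.14, adjusted p = 0.014, edgeR), 0.22 in GCERAdT over TRACK (SE 0.11, adjusted p = 0.226, edgeR) and 0.03 in TRACK over WT (SE 0.11, adjusted p = 0.83, edgeR). The increase over GCERAd did not pass with GCERAdT 2 and 3 summed as well (0.54, adjusted p = 0.0586) or in kind B libraries alone (0.46, adjusted p = 0.194).

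Slc11a2 encodes DMT1, the importer of ferrous iron of endosomes and apical membranes (ENSMUSG00000023030, chromosome 15, minus strand, 100387898 to 100425072). WT 1 to 5 had 75.0, 75.3, 79.6, 63.4 and 66.8 CPM. GCERAd 1 to 5 had 95.5, 97.0, 98.6, 108 and 109 CPM. TRACK 1 to 3 had 106, 106 and 102 CPM, within the range of GCERAd and above all WT libraries. GCERAdT 1 to 4 had 113, 127, 136 and 149.8 CPM. Every GCERAdT library was above every library of the other 3 groups, so the order was WT, then GCERAd and TRACK together, then GCERAdT.

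The log2 fold change of Slc11a2 was 0.51 in GCERAd over WT (SE 0.077, adjusted p = 0.000601, edgeR) and 0.54 in TRACK over WT (SE 0.084, adjusted p = 0.000645, edgeR), 2 comparisons that share the WT libraries. In GCERAdT it was 0.36 over GCERAd (SE 0.095, adjusted p = 0.0262, edgeR) and 0.33 over TRACK (SE 0.10, adjusted p = 0.0825, edgeR), where the groups did not overlap but the test did not pass. The latter passed with kind as a covariate (0.46, adjusted p = 0.0304), with DESeq2 (adjusted p = 0.0237) and without GCERAdT 1, and the former was lost with no abundance minimum (adjusted p = 0.0645), with GCERAdT 2 and 3 summed as well (adjusted p = 0.0983), in kind B libraries alone (adjusted p = 0.098) and with any 1 of 6 libraries left out, GCERAd 1, 2 or 3 or GCERAdT 2, 3 or 4 (highest adjusted p = 0.0672). The gene Gm5475 on the opposite strand shares exon bases with Slc11a2 and had 1273 counts, against 102932 of Slc11a2, over all libraries.

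Tfrc encodes the transferrin receptor (ENSMUSG00000022797, chromosome 16, 32608920 to 32632794). WT 1 to 5 had 48.2, 54.2, 65.8, 59.2 and 71.8 CPM. GCERAd 1 to 5 had 164, 143, 162, 113 and 97.8 CPM. All GCERAd libraries exceeded WT, with GCERAd 4 and 5 the lowest of the group. The log2 fold change of 1.20, a 2.29-fold increase, was the largest increase among the 10 genes in any of the comparisons between groups (SE 0.16, adjusted p = 0.000228, edgeR), and it was 1.40 without GCERAd 4 and 5 (adjusted p = 1.41e-05, edgeR).

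TRACK 1 to 3 had 86.8, 88.2 and 95.7 CPM of Tfrc, above WT by a log2 fold change of 0.59 (SE 0.12, adjusted p = 0.00276, edgeR). GCERAdT 1 to 4 had 87.7, 97.0, 124 and 79.7 CPM, around the level of TRACK (0.12, SE 0.14, adjusted p = 0.648, edgeR). GCERAdT overlapped with GCERAd only through GCERAd 4 and 5. The log2 fold change of -0.50 in GCERAdT over GCERAd did not pass (SE 0.18, adjusted p = 0.0774, edgeR), while it was -0.68 without these libraries (adjusted p = 0.0061, edgeR) and -0.60 with the mouse number as a block (adjusted p = 0.00436, edgeR). Erythroid precursors also express Tfrc, and the summed level of 7 erythroid genes was 132 to 204 CPM in WT, 184 to 294 in GCERAd, 231 to 513 in TRACK and 207 to 402 in GCERAdT. This sum holds Slc4a1, also a collecting duct marker, which was 54.6 to 76.6 CPM in WT and 35.5 to 41.3 in GCERAd. Of the 6 erythroid genes tested in GCERAd over WT, 4 rose and 1 fell, where 27.6% of all genes were called. Hbb-bs was 53.5 to 93.5 CPM in WT and 107 to 177 in GCERAd. The part of erythroid cells in the level of Tfrc was not tested.

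Fth1 encodes the heavy subunit of ferritin, which oxidises iron for storage (ENSMUSG00000024661, chromosome 19, 9980598 to 9985098). WT 1 to 5 had 4248, 3982, 4098, 3807 and 4191 CPM. GCERAd 1 to 5 had 3819, 4637, 4146, 6005 and 5411 CPM. GCERAd 1, 2 and 3 were around the WT level and GCERAd 4 and 5 were above it. In GCERAd over WT the fitted change was 0.25 on the log2 scale (SE 0.13, adjusted p = 0.167, edgeR) and 0.06 without GCERAd 4 and 5 (adjusted p = 0.6, edgeR).

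TRACK 1 to 3 had 7100.1, 6063 and 6076 CPM of Fth1, more than all other libraries. GCERAdT 1 to 4 had 4648, 4798, 4556 and 4378 CPM, all above WT and all below TRACK. The log2 fold change was 0.66 in TRACK over WT (SE 0.078, adjusted p = 0.000138, edgeR) and -0.47 in GCERAdT over TRACK (SE 0.087, adjusted p = 0.0135, edgeR). The latter passed with kind as a covariate (-0.51, adjusted p = 0.0432) but not without TRACK 1 (adjusted p = 0.0648) or in kind B libraries alone (-0.51, adjusted p = 0.0904). Fth1 has processed copies in the mouse genome, and the treatment of reads with several matches is not given in the sources used here, so its level carries that uncertainty.

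**Figure D4:**
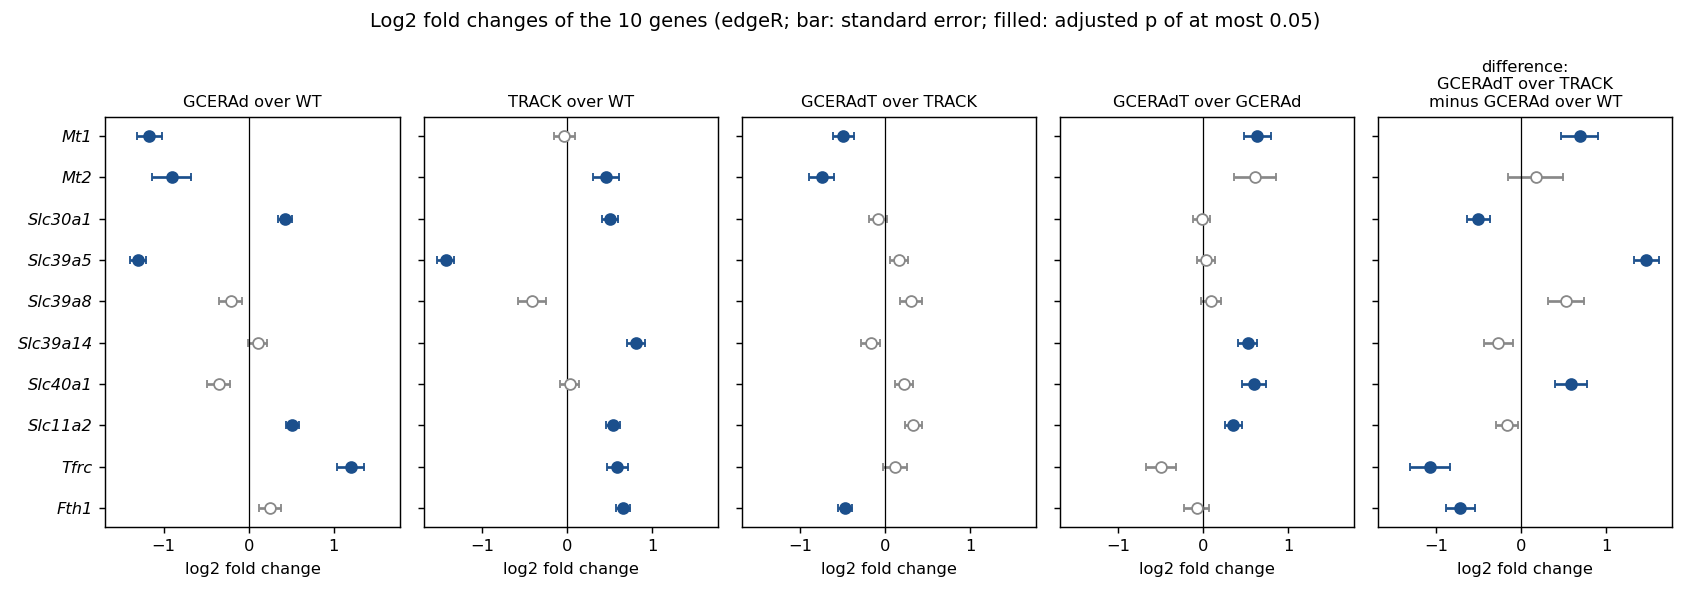
Log2 fold changes of the 10 genes in the 4 comparisons of groups and in the difference between both deletion contrasts (edgeR, bars are standard errors, filled points passed at an adjusted p of at most 0.05). Mt1 and Mt2 are below 0 in GCERAd over WT and in GCERAdT over TRACK. Slc39a5 and Tfrc are far from 0 in GCERAd over WT and near 0 in GCERAdT over TRACK.

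In TRACK over WT, 7 of the 10 genes changed, 6 of them upwards, while 45.6% of the 11967 genes tested passed, 23% upwards and 22.6% downwards. Those that rose were Mt2, Slc30a1, Slc39a14, Slc11a2, Tfrc and Fth1, and Slc39a5 fell. Groups did not overlap for 6 of the 10, against 44.3% of all genes. The median log2 fold change of the 10 genes was 0.48, against -0.01 over all genes. With library kind as a covariate 5 of the 7 passed. Fewer of all genes passed there as well, as given below, so this count is not a result about the 10 genes.

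In GCERAdT over TRACK, Mt1, Mt2 and Fth1 fell and none of the 10 genes rose by edgeR's test, where 7.09% of 11928 genes passed, 2.81% upwards and 4.28% downwards. The groups did not overlap for 4 of the 10, these 3 and Slc11a2, against 23.1% of all genes. In GCERAdT over GCERAd, 4 genes rose (Mt1, Slc39a14, Slc40a1 and Slc11a2) and none fell by edgeR without the block, with 19.2% of 11816 genes called, 9.39% upwards and 9.79% downwards. Groups did not overlap for these 4, against 19.3% of all genes. With the mouse number as a block, 6 of the 10 changed, as Mt2 rose (0.83, adjusted p = 0.00184, edgeR) and Tfrc fell (-0.60, adjusted p = 0.00436, edgeR). The labels used here name no pairs between these groups. Libraries of the same number were also of the same kind, so a pairing and library kind cannot be told apart. DESeq2 also called Tfrc lower (-0.49, adjusted p = 0.0278). DESeq2 called 4 of the 10 genes in the former and 5 in the latter comparison, and 5 and 6 passed at an unadjusted p of at most 0.05 with edgeR. DESeq2 in the former and the block in the latter also called more of all genes than the main fit, as given below. Shares of all genes for the other counts are not given here, so these counts are not a result about the 10 genes.

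Whether the deletion contrast differed between the backgrounds was tested with all 17 libraries, as the log2 fold change of GCERAdT over TRACK minus that of GCERAd over WT. It passed for 6 of the 10 genes, 3 of them upwards, and for 25.1% of 12208 genes tested, 12.3% upwards and 12.8% downwards. The difference was 1.47 for Slc39a5 (SE 0.15, adjusted p = 3.18e-06, edgeR) and -1.08 for Tfrc (SE 0.23, adjusted p = 0.00338, edgeR). It was -0.72 for Fth1, 0.68 for Mt1, 0.58 for Slc40a1 and -0.51 for Slc30a1, with adjusted p of 0.00599, 0.0296, 0.0333 and 0.0136 (edgeR). The call of Mt1 was lost with the mouse number as a block (0.64, adjusted p = 0.0569), with repeat libraries summed (0.57, adjusted p = 0.063, or 0.0806 with GCERAdT 2 and 3 summed too) and without WT 1, TRACK 1, TRACK 2 or GCERAdT 4 (highest adjusted p = 0.0775). That of Slc40a1 was lost with repeat libraries summed (0.51, adjusted p = 0.0659, or 0.0987 with GCERAdT 2 and 3 too), with no abundance minimum (0.54, adjusted p = 0.0653), in kind B libraries alone (0.49, adjusted p = 0.299) and without any 1 of 7 libraries, WT 1, WT 4, GCERAd 3, TRACK 1, TRACK 2, GCERAdT 1 or GCERAdT 3 (highest adjusted p = 0.102). In kind B libraries alone the differences of Slc30a1, Tfrc and Fth1 did not pass either (adjusted p of 0.377, 0.161 and 0.125). Mt2, which fell in both contrasts, had a difference of 0.17 (SE 0.32, adjusted p = 0.739, edgeR). The contrast of GCERAd with WT is also one of males with females, and that part of the difference cannot be told apart.

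**Figure D5:**
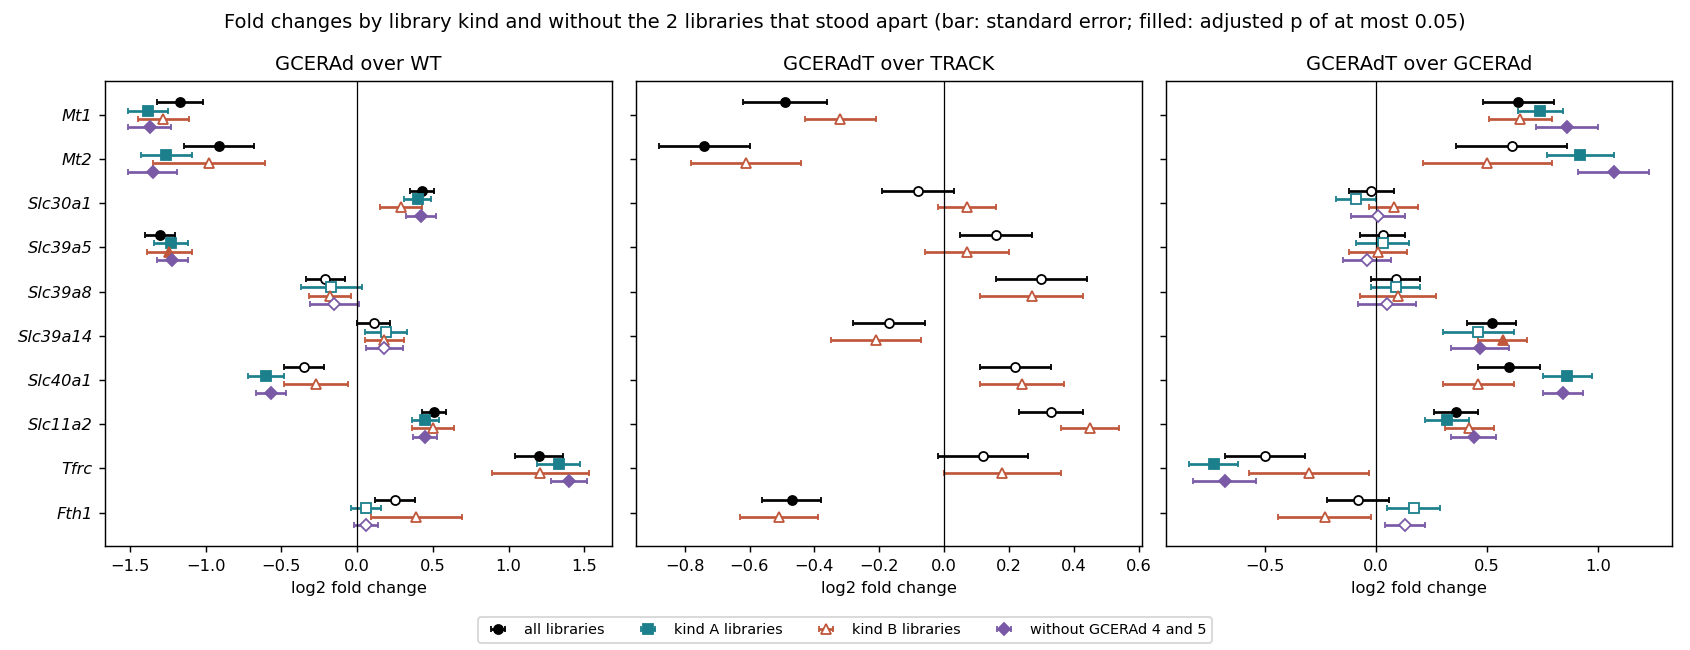
Log2 fold changes of the 10 genes in 3 comparisons, with all libraries, with kind A or kind B libraries alone where both groups had them, and without GCERAd 4 and 5 (edgeR, bars are standard errors, filled points passed at an adjusted p of at most 0.05). The fold changes of Mt1, Mt2 and Tfrc in GCERAd over WT are farther from 0 without GCERAd 4 and 5, and that of Slc40a1 passes there.

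Within the groups, after each library was set against its group mean on the log2 scale, Mt1 and Mt2 varied together over the 17 libraries (Pearson's r of 0.85). Tfrc varied against Mt2 (-0.80), Mt1 (-0.60) and Fth1 (-0.57), and Slc39a5 against Mt2 (-0.75), Slc30a1 (-0.66) and Mt1 (-0.65). These were the most negative pairs among the 10 genes. The genes nearest to each of the 10 in this measure, among 12207 others, were found by rule and are a description, since the libraries share their kind, and GCERAd 4 and 5 share a deviation. Nearest to Mt1 were Cirbp (0.97), Stx12 and Cpox (0.95 each). Nearest to Mt2 were Fkbp5 (0.96), a glucocorticoid-induced immunophilin, Nr1h4 (0.95), the bile acid receptor, and Fam210b (0.94). Nearest to Tfrc were Fgfr1op2 (0.96), Mtx2 and Itgb8 (0.93 each). For Fth1 they were Slc48a1 (0.95), which carries haem, Ghdc (0.94) and Ano10 (0.92). Those of Slc40a1 were Sox7, Acap2 and 1700052K11Rik, with r between 0.92 and 0.95, and those of Slc11a2 were N6amt1, Naxd and Tmem86a, between 0.90 and 0.91. For Slc30a1, Slc39a5, Slc39a8 and Slc39a14 the nearest genes were Abhd17b (0.93), Kctd1, Cldn19 (0.89 each) and Ifnlr1 (0.85).

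Other genes of metal handling were counted from lists that leave out the 10 genes. Of 15 further zinc transporters and sensors tested, 3 rose and 2 fell in GCERAd over WT, with a median log2 fold change of 0.14. In GCERAdT over TRACK none of the 15 was called by edgeR. The 3 that rose were Slc30a2 (1.26), Slc39a10 (0.56) and Slc30a5 (0.45), and of those that fell only Slc39a6 (-0.48) had groups that did not overlap. Of 18 further genes of cellular iron handling, 3 rose and 7 fell in GCERAd over WT. Slc25a37, the mitochondrial iron importer, and Ireb2, which encodes an iron regulatory protein, rose by 0.38 and 0.34, while Lcn2, Steap3 and Heph, the last 2 of which reduce or oxidise iron, had log2 fold changes of -1.48, -1.45 and -0.49. In GCERAdT over TRACK, 1 of the 18 changed, Lcn2 (-2.30), which was 5.66 to 25.5 CPM in TRACK and 1.70 to 3.56 in GCERAdT and is itself an injury marker.

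Of 18 genes of haem synthesis, transport and breakdown, 8 rose and 2 fell in GCERAd over WT. Alas2, the erythroid enzyme that starts haem synthesis, had a log2 fold change of 1.61, Hmox1, which breaks haem down, 1.30, and Cpox 1.19, whereas Flvcr2 and Flvcr1 had -1.29 and -0.87. Hmox1 was 18.9 to 22.6 CPM in GCERAd 1 to 3, 55.1 and 57.9 CPM in GCERAd 4 and 5 and 12.9 to 16.7 CPM in WT. In GCERAdT over TRACK, 3 of 19 fell, which were Hp (-3.65), Alas1 (-1.68) and Flvcr1 (-0.50). Of 6 genes of systemic iron control, 1 fell in GCERAd over WT, Neo1 (-0.36), and of 7 copper handling genes Slc31a1, the copper importer, rose (0.42) and Slc31a2 fell (-0.41). Of the manganese carriers outside the 10 genes only Atp2c1 was tested in GCERAd over WT, and it fell (-0.24).

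In the comparisons that hold the TRACK transgene against its absence, the zinc list had 5 genes higher and 2 lower of 15 in TRACK over WT, and 0 higher and 2 lower in GCERAdT over GCERAd. The cellular iron list had 4 higher and 7 lower of 19 in the former and 3 higher and 2 lower of 18 in the latter. The systemic iron list had 4 of 6 higher in TRACK over WT and 0 called in GCERAdT over GCERAd by edgeR, and the haem list had 10 higher and 4 lower of 19, then 1 higher and 6 lower of 18. Called shares of all genes were 45.6% and 19.2%, so that only the counts and not an excess over other genes are given. For the earlier comparisons, the counts stand beside 27.6% of all genes called in GCERAd over WT and 7.09% in GCERAdT over TRACK.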

How the data were processed

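RNA of kidney cortex from 17 libraries (5 WT, 5 GCERAd, 3 TRACK and 4 GCERAdT) had been sequenced from stranded mRNA libraries. The deposited values are raw read counts per gene, which the authors made with bcl2fastq 2.20, Cutadapt, STAR and HTSeq on GRCm38. The annotation release, the strand setting and the treatment of multiply mapped reads are not given in the sources used here. Of 48795 genes, 663 had no name and 360 had no length in GENCODE M21, so that 48435 could be given FPKM. The total count was 53688512 to 71364561 per library.

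The counts were tested as deposited with edgeR 4.0.16 in R 4.3.3 (TMM scaling, quasi-likelihood F test) on the libraries of the compared groups, and on all 17 for the difference between contrasts. Genes needed a mean of at least 1 FPKM in a compared group. P-values were adjusted by the Benjamini-Hochberg method among the genes tested, with calls at 0.05 or less, and standard errors were taken from the F statistic. CPM are counts divided by TMM-scaled library totals. Correlations used log2 CPM with a prior count of 2 and the 3 nearest genes are named. Alternatives were DESeq2 1.42.0, RLE scaling, plain CPM, other minima (none, or 5 FPKM), the mouse number as a block, all libraries in 1 fit, library kind as a covariate or alone (told apart at a processed pseudogene share of 0.0477%), summed repeat libraries, each library left out and, chosen after seeing the data, GCERAd 4 and 5 left out. Same-numbered libraries of GCERAdT and GCERAd deviated alike (r of 0.478 to 0.62 for numbers 1 to 4), which was not so in the other comparisons. They are also of the same kind, and libraries of different numbers were not compared, so a pairing of mice was not shown.

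The 10 genes, the lists and the naming rule were chosen with earlier results of these data known. Of the lists, the called genes with groups that did not overlap are named for GCERAd over WT and GCERAdT over TRACK, at most 3 each way. The fits were tested on simulated data. Figures were drawn with matplotlib 3.10.9.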

Additional observations from a re-analysis of the deposited data

Results flagged for a closer look

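Among 30 sets of 4 or 5 libraries examined for a single distant value, 2 held one, where chance gives about 1 in 20. Slc39a8 was at 133 CPM in WT 3, against 73.9 to 90.3 CPM in the other WT libraries. Slc39a14 was at 44.0 CPM in GCERAd 1, against 29.8 to 33.0 CPM in the other GCERAd libraries.

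The deletion contrast differed between the TRACK background and the background without TRACK for 6 of the 10 genes by edgeR's test of the difference. The log2 difference was 0.68 for Mt1, -0.51 for Slc30a1, 1.47 for Slc39a5, 0.58 for Slc40a1, -1.08 for Tfrc and -0.72 for Fth1. In kind B libraries alone it passed for Mt1 (0.94, adjusted p = 0.0459, edgeR) and Slc39a5 (1.29, adjusted p = 0.015, edgeR). The call of Mt1 was lost with the mouse number as a block (0.64, adjusted p = 0.0569, edgeR), with repeat libraries summed (0.57, adjusted p = 0.063, edgeR) and without any 1 of 4 libraries, and that of Slc40a1 with repeat libraries summed (0.51, adjusted p = 0.0659, edgeR), with no abundance minimum (0.54, adjusted p = 0.0653, edgeR), in kind B libraries alone (0.49, adjusted p = 0.299, edgeR) and without any 1 of 7 libraries. Sex differed between GCERAd and WT but not between GCERAdT and TRACK, and its part in these differences cannot be told apart from that of the genotype.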

How the results depend on the processing

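Of 508 log2 fold changes of single genes under settings other than a left-out library, 434 kept their direction and their side of the threshold, as did 456 of 510 with a library left out. Counts of called genes are not among these values. With plain CPM, 167 of 170 levels moved by less than 1 SD. Kind B libraries alone left 1 of the 10 genes called in GCERAd over WT, 0 in GCERAdT over TRACK (4 at an unadjusted p of at most 0.05, edgeR), 1 in GCERAdT over GCERAd and 2 in the difference, with 98, 221, 349 and 452 of all genes, and 1475 of all genes in TRACK over WT. Fewer libraries enter these fits. All libraries in 1 fit left 1 of the 10 in GCERAdT over TRACK, and summed repeat libraries left 1 in GCERAdT over GCERAd. Over all genes, the count in GCERAdT over TRACK was 1562 with DESeq2, 462 with library kind as a covariate and 498 with summed repeats, and in TRACK over WT 2776 with the covariate and 3438 with the stricter minimum. Summed repeats gave 1168 in GCERAdT over GCERAd, and the stricter minimum 2041 in the difference, where fewer genes were tested. The mouse number as a block gave 2106 genes in GCERAd over WT, 3431 in TRACK over WT and 3770 in GCERAdT over GCERAd, against 3198, 5458 and 2266. Outside GCERAdT over GCERAd, same-numbered libraries had r of -0.692 to 0.265 in GCERAd over WT, -0.095 to 0.125 in TRACK over WT and -0.004 to 0.079 in GCERAdT over TRACK. Where no construction is named, the cause was not tested.

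With a library left out, 6 to 7 of the 10 genes were called in GCERAd over WT, 0 to 3 in GCERAdT over TRACK, 6 to 7 in TRACK over WT, 3 to 6 in GCERAdT over GCERAd and 4 to 6 in the difference, and 2477 to 3246, 379 to 1424, 4101 to 6041, 1427 to 2336 and 2205 to 3303 of all genes. The 0 was without TRACK 1, where 4 passed at an unadjusted p of at most 0.05 (edgeR).

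The sign turned for log2 fold changes that were called under neither setting. In GCERAdT over TRACK, Slc30a1 was 0.07 with the kind covariate and in kind B, and Tfrc ran from -0.03 to 0.20 with a library left out. In TRACK over WT, Mt1 was 0.04 with summed repeats and -0.09 to 0.05 with a library left out, and Slc40a1 was -0.04 with the covariate and in kind B and -0.06 to 0.11 with a library left out. In GCERAd over WT, Slc39a14 ran from -0.01 to 0.15 with a library left out. In GCERAdT over GCERAd, Slc30a1 was 0.03 with the stricter minimum, 0.08 in kind B, 0.01 without GCERAd 4 and 5 and -0.10 to 0.05 with a library left out. There, Slc39a5 was -0.02 with the block, -0.04 without GCERAd 4 and 5 and -0.03 to 0.11 with a library left out, and Fth1 was 0.17 in kind A, 0.13 without GCERAd 4 and 5 and -0.15 to 0.03 with a library left out. Mt2 was -0.02 in the difference with summed repeats. Slc39a14 was below the stricter minimum in GCERAd over WT and in GCERAdT over GCERAd, and GCERAdT over TRACK had no kind A fit, as TRACK holds no such library.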
